A study of Mus musculus with 15 samples.

Results

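The collagen genes were taken from RNA-seq of mouse embryonic stem cells (ESC) as every gene symbol in both deposited count tables that has the form Col, a type number, a and a chain number. The rule found 43 of 21662 genes. ESC are the cultured counterpart of the early epiblast, and the study asked how their gene expression depends on Hmga1, a chromatin protein that binds AT-rich DNA. In the KO experiment, 9 libraries were compared: the parental WT line in 3 replicates, and in 2 replicates each an Hmga1 KO clone, in which Cas9 had introduced a frameshift, an Hmga1 add-back and an Hmga2 add-back, made by placing a tagged cDNA under a CAG promoter in the KO cells. In the full-deletion experiment, 3 WT libraries were compared with 3 libraries of a line that lacks the Hmga1 coding sequence. All lines were of mixed 129Sv-C57Bl/6 background and had been made to express BirA, and they were grown with serum and LIF on feeder cells or gelatine. Each genotype was 1 cell line, and the replicates were separate cultures harvested on different days, so that the p-values measure the spread between cultures of a line and not between independently made lines.

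Collagens are triple helices of 3 chains, each encoded by a gene of its own. Fibrillar collagens such as types I, III and V form the fibres of connective tissue and are made in bulk by fibroblasts. Type IV collagen forms the sheet-like network of basement membranes, together with laminins, nidogens and perlecan, and its α1 and α2 chains are made in large amounts by primitive and parietal endoderm, the extraembryonic lineage that ESC cultures can also give rise to. Col18a1 encodes a basement membrane proteoglycan whose C-terminal fragment is endostatin.

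Total counts ranged from 13465399 to 34952136 per library, and a count of 0 allowed a level of up to 0.0841 to 0.233 CPM (counts scaled to the size of each library), a limit of counting error only. Pou5f1, which marks pluripotent cells, lay between 628 and 1050 CPM. Hmga1 had 310 to 356 CPM in WT of the full-deletion experiment and 10.9 to 12.3 CPM after full deletion. It was at 217 and 96.0 CPM in the frameshift KO, whose transcript can persist, and at 220 to 464 CPM in WT. The Hmga1 add-back had 184 and 123 CPM of Hmga1 and the Hmga2 add-back 249 and 222 CPM of Hmga2, against 12.8 to 23.8 CPM of Hmga2 in WT. These are RNA values. By Western blot, the study reported no Hmga1 protein in the KO and amounts comparable to WT in the Hmga1 add-back. The libraries with the letters a and b of the KO experiment were prepared and sequenced in separate batches. WT c was the only library of the KO experiment with its letter. Fits with the batch as a term thus compared the other groups with WT a and b only. In the full-deletion experiment WT b stood apart, with 8.78% of its counts in its 10 most abundant genes against 4.67% to 5.38% in the other libraries.

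Few collagens were expressed in these cells, and Col18a1, Col4a1 and Col4a2, of basement membranes, had the highest means in each group. Levels of different genes were compared as RPKM, the CPM per kilobase of exon. Of the 43 genes, 8 had a mean of at least 1 RPKM in any of the 6 groups: Col18a1, Col4a1, Col4a2, Col13a1, Col9a2, Col5a1, Col6a5 and Col20a1. The other 35 had a highest group mean between 0.0182 and 0.749 RPKM. Of the 11 fibrillar genes, 1 reached that level, of the 6 type IV genes 2, of the 3 genes of the basement membrane zone 1, of the 9 FACIT genes, whose products coat fibrils, 2, of the 5 type VI genes 1 and of the 4 transmembrane collagens 1. None of the 3 short-chain and none of the 2 remaining genes did.

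**Figure D1:**
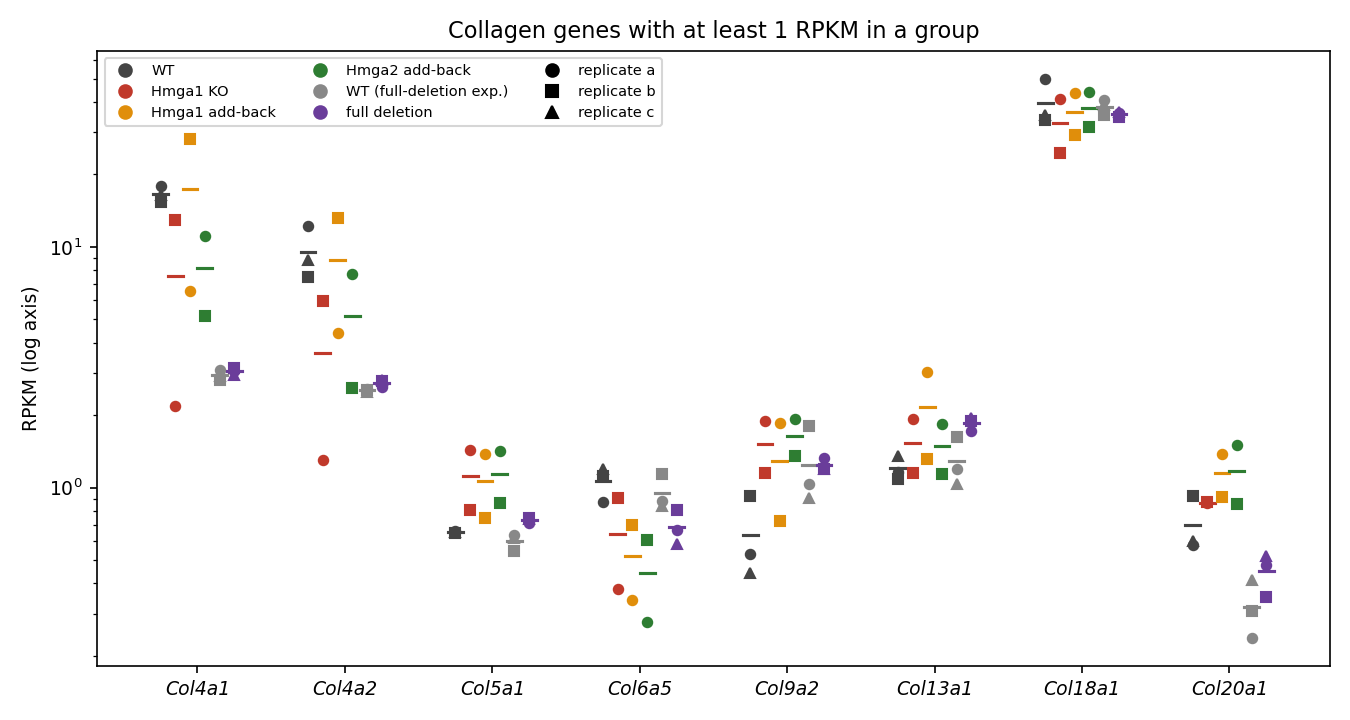
RPKM on a log axis of the 8 collagen genes with at least 1 RPKM in a group; each point is a library, colours are groups, shapes are replicate letters and bars are group means. Col18a1 lay between 24.5 and 50 RPKM in all libraries, while Col4a1 ran from 2.19 to 28.2 RPKM.

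Col18a1 was the most abundant collagen by group mean in all 6 groups. It had 50, 33.7 and 35.4 RPKM in WT a, b and c, 41.1 and 24.5 RPKM in Hmga1 KO, 43.6 and 29.2 RPKM in the Hmga1 add-back and 44.2 and 31.6 RPKM in the Hmga2 add-back. In the full-deletion experiment it had 40.6, 35.2 and 38.9 RPKM in WT and 36.0, 34.8 and 36.4 RPKM after deletion. The groups overlapped in both experiments, and within the KO experiment the b library was the lowest of each group. Against WT, with the batch in the model, Col18a1 had a log2 fold change of -0.37 ± 0.11 (SE) in Hmga1 KO (adjusted p = 0.245, edgeR quasi-likelihood test, adjusted by Benjamini-Hochberg) and -0.10 ± 0.10 after full deletion (adjusted p = 0.510).

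Col4a1 and Col4a2, which encode the 2 chains of the common type IV collagen, were the next most abundant by group mean. In Hmga1 KO a, though, Col4a2 had 1.30 RPKM and Col13a1 had 1.93 RPKM. Col4a1 and Col4a2 lie head to head on chromosome 8. In the mouse assembly NCBIM37, Col4a1 (chr8:11198423-11312826, minus strand) and Col4a2 (chr8:11312805-11449287, plus strand) have first exons that share 22 bases, of which 72.7% are G or C. The sequence around both starts, chr8:11312801-11312830 on the plus strand, is shown because the pair is transcribed in opposite directions from it, with the bases common to both first exons in capitals.
Col4a1-Col4a2 start sites: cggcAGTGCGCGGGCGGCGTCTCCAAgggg
Reads were counted by strand, so this overlap does not mix the 2 genes. Col4a3 and Col4a4, the second head-to-head pair, start 71 bases apart on chromosome 1 and had 19 and 27 counts in all 15 libraries together. The bases between their starts, chr1:82583425-82583495 on the plus strand, are shown for comparison with the expressed pair.
between the Col4a4 and Col4a3 starts: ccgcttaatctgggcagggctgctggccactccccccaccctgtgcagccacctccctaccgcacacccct
Short promoter motifs were searched on both strands, the CCAAT box, the GC box (GGGCGG) and the TATA box (written here as TATAAA). The stretch between Col4a4 and Col4a3 held none of them. Among RefSeq promoters of GRCm38.p6 (250 bases before to 50 after the start, available for 34 of the 43 genes), the GC box was present in 22 of 34 (64.7%), against 35.9% of all 27025 promoters. The 27025 promoters were not limited to genes in the count tables. The median GC content of the 34 collagen promoters was 60.2%, against 52.7% over all promoters, and the share with a GC box was not adjusted for it. The CCAAT box was present in 35.3% against 37.9%, and the TATA box in 14.7% against 14.2%. The promoters of both Col4a1 and Col4a2 held the CCAAT box and the GC box, as did that of the scarcely expressed Col1a2. Over the gene bodies, the collagen genes had a median AT content of 52.2% (range 44.0% to 64.8%), against 54.3% over the 20880 genes with a position.

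Col4a1 and Col4a2 varied widely between the 2 libraries of each KO-derived group, whereas Col4a1 was even among the WT libraries. Col4a1 had 17.9, 15.4 and 16.4 RPKM in WT a, b and c, 2.19 and 13 RPKM in Hmga1 KO a and b, 6.59 and 28.2 RPKM in the Hmga1 add-back and 11.1 and 5.18 RPKM in the Hmga2 add-back. Col4a2 had 12.2, 7.53 and 8.80 RPKM in WT, 1.30 and 5.96 RPKM in Hmga1 KO, 4.37 and 13.2 RPKM in the Hmga1 add-back and 7.70 and 2.60 RPKM in the Hmga2 add-back. For both genes the lowest library was Hmga1 KO a and the highest Hmga1 add-back b, and the KO-derived groups overlapped each other. Between the 9 libraries the CPM of Col4a1 differed by up to 12.9-fold and that of Col4a2 by up to 10.1-fold. Among the 10573 genes whose mean count reached 100, the median ratio was 1.71, and 0.227% and 0.322% had a ratio at least as wide.

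The 2 chains moved together, and their ratio differed by batch. In the KO experiment Col4a2 had 0.594 to 0.696 times the RPKM of Col4a1 in the 4 a libraries, 0.458 to 0.503 times in the 4 b libraries, without overlap, and 0.538 times in WT c. It had 0.828 to 0.946 times in the full-deletion experiment, so that the ratio spanned 2.07-fold over all 15 libraries. In the latter the levels were lower and even: Col4a1 had 3.09, 2.79 and 2.92 RPKM in WT and 3.05, 3.15 and 2.94 RPKM after deletion, and Col4a2 had 2.56, 2.54 and 2.50 RPKM in WT and 2.63, 2.78 and 2.79 RPKM after deletion. Col4a1 overlapped between the groups, whereas the 3 deletion libraries lay above the 3 WT libraries for Col4a2. Each experiment was normalised on its own, and no test was made between their WT groups.

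Within each group of the KO experiment, the summed markers of primitive and extraembryonic endoderm followed the order of Col4a1 and Col4a2. The 15 markers (among them Gata4, Gata6 and Sox17, transcription factors of that lineage, and Cubn and Dab2, of its endocytic apparatus) summed to 105 to 204 CPM in WT, 26.2 and 87.1 CPM in Hmga1 KO a and b, 56.1 and 165 CPM in the Hmga1 add-back and 70.1 and 43.7 CPM in the Hmga2 add-back. In each of the KO-derived groups, the library with more Col4a1 also had the higher sum. Across groups the order differed: Col4a1 was highest in Hmga1 add-back b, and the sum in WT a, at 204 CPM. Cubn and Dab2 made up much of it, with 78.2 and 50.6 CPM in WT a. Hnf4a, a transcription factor in the same list, did not follow: it had 5.85, 6.90 and 4.31 CPM in WT, 10.6 and 11.9 CPM in Hmga1 KO, 12.3 and 7.72 CPM in the Hmga1 add-back and 13 and 6.40 CPM in the Hmga2 add-back. Gata6 ran against Col4a1 in the Hmga2 add-back, at 1.92 and 2.67 CPM in a and b. In the full-deletion experiment the 15 markers summed to 15.8 to 20.7 CPM in WT and 24.0 to 25.7 CPM after deletion, whereas Col4a1 overlapped between the groups. Afp and Ttr, of later visceral endoderm, were at most 0.0775 and 1.05 CPM. In bulk RNA, fewer cells of a type and less RNA per cell cannot be told apart, and the part of such cells in the type IV levels was not tested.

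**Figure D2:**
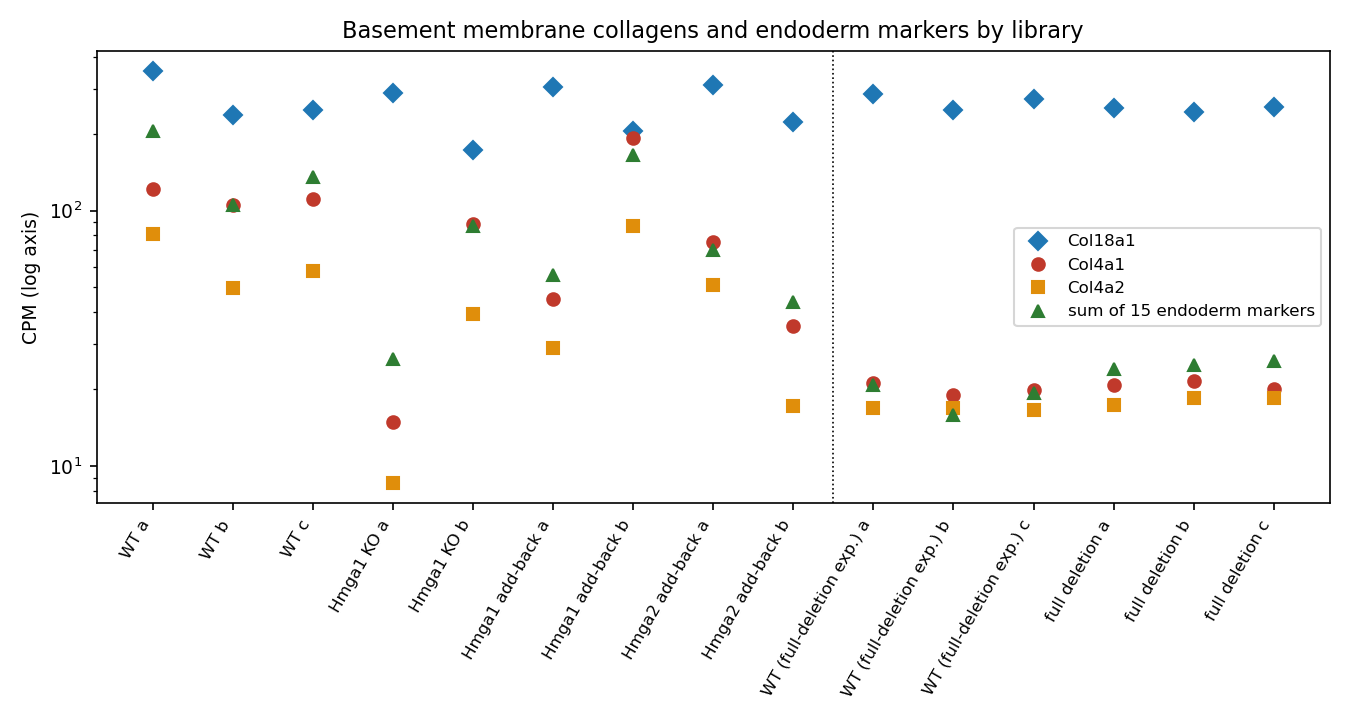
CPM on a log axis of Col18a1, Col4a1 and Col4a2 and of the sum of 15 endoderm markers in each of the 15 libraries, with the 2 experiments separated by a dotted line. Col4a1, Col4a2 and the marker sum were lowest of the KO experiment in Hmga1 KO a, where Col4a1 had 14.9 CPM, and Col18a1 did not follow them.

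In the test across all genes, neither type IV gene differed from WT at an adjusted p under 0.05. Col4a1 had a log2 fold change of -1.50 ± 0.79 (SE) in Hmga1 KO against WT (adjusted p = 0.471, edgeR) and Col4a2 of -1.66 ± 0.80 (adjusted p = 0.435). Within batch a the log2 ratio of Hmga1 KO to WT was -3.03 for Col4a1 and within batch b it was -0.24, so that the size rested on batch a. For the Hmga2 add-back against Hmga1 KO the sign of Col4a1 turned between batches, from 2.34 in a to -1.33 in b. Fitted with only the 2 groups compared, which leaves 1 residual degree of freedom, edgeR called Col4a1 and Col4a2 higher in the Hmga1 add-back than in Hmga1 KO (log2 fold changes 1.35 and 1.44) and lower in the Hmga2 add-back than in WT (-1.11 and -1.07), calls that the fit over all 9 libraries did not make. In that fit the values for the Hmga1 add-back against Hmga1 KO were 1.25 and 1.33, and single libraries set their size. Without Hmga1 add-back b they were 0.10 and 0.24, without Hmga1 KO a 0.44 and 0.47, and without Hmga1 KO b 2.80 and 2.91.

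Fibrillar collagens were scarce. Col1a1 and Col1a2, the chains of type I collagen, and Col3a1, of type III, are the main collagens of fibroblasts. Col1a1 had 17, 5 and 8 counts in WT, 33 and 13 in Hmga1 KO, 44 and 6 in the Hmga1 add-back and 33 and 6 in the Hmga2 add-back, then 19, 7 and 11 in the second WT group and 3, 10 and 6 after full deletion. Col1a2 had 14, 6 and 20 counts in WT, 5 and 4 in Hmga1 KO, 13 and 2 with Hmga1 added back, 17 and 2 with Hmga2 added back, 1, 0 and 2 in the second WT group and 0, 13 and 5 after full deletion. Col1a1 passed the filter of a mean count of 10 in the KO experiment alone and Col1a2 in neither experiment.

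Col3a1 had 16, 0 and 18 counts in WT a, b and c, 2 in Hmga1 add-back a, 1 in Hmga2 add-back b and 0 in each of the other 10 libraries. Its counts thus came almost entirely from WT a and c. Col19a1, a FACIT collagen, had the same distribution, with 18, 0 and 27 counts in WT and 2 counts in all other libraries together. Col4a4 had 5, 0 and 20 counts in WT and 2 of its 27 counts outside WT a and c. Col8a1 had 7, 1 and 14 counts in WT and 8 of 29 outside WT a and c, 6 of them in Hmga2 add-back a. Col14a1 was spread more widely, with 15, 2 and 29 counts in WT and 31 of 75 outside WT a and c. Each of these 5 genes was too low to be tested.

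The feeder cells named for these cultures are fibroblasts, and a list of 17 feeder markers was followed beside the fibrillar collagens. Of these, 8 (Dcn, Lum, Postn, Prrx1, Twist2, Fap, Mmp3 and Ogn) were under the filter in the KO experiment and had 99 counts in all 15 libraries together. WT a held 25 and WT c 38 of these counts, and each other library 0 to 6. Dcn, a proteoglycan of connective tissue, had 4 counts in WT c and 0 in each other library. Prrx1, a mesenchymal transcription factor, had 11, 1 and 20 counts in WT and at most 2 in each other library, and Thbs2, a matrix protein that passed the filter, had 38, 6 and 25 counts in WT and at most 7 elsewhere. Other markers of the list went the other way. Thy1 had 6.01, 2.64 and 3.36 CPM in WT but 10.8 and 11.7 CPM in Hmga1 add-back a and Hmga2 add-back a. Mmp2 had 7.71, 7.06 and 6.35 CPM in WT but 20.8 and 22.0 CPM in those libraries. WT a and c, which held most of Col3a1 and Col19a1, were thus not the highest libraries for all 17 markers.

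All 17 markers summed to 25.5 to 29.7 CPM in WT, 31.0 to 37.2 CPM in Hmga1 KO, 33.6 to 46.5 CPM in the Hmga1 add-back and 31.0 to 50.5 CPM in the Hmga2 add-back, and to 21.7 to 25.7 CPM in WT and 32 to 34.8 CPM after full deletion. Mmp2, Thy1 and Tagln, which other cells also express, were among the most abundant of them. The part of feeder cells in the fibrillar collagen counts was not tested.

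**Figure D3:**
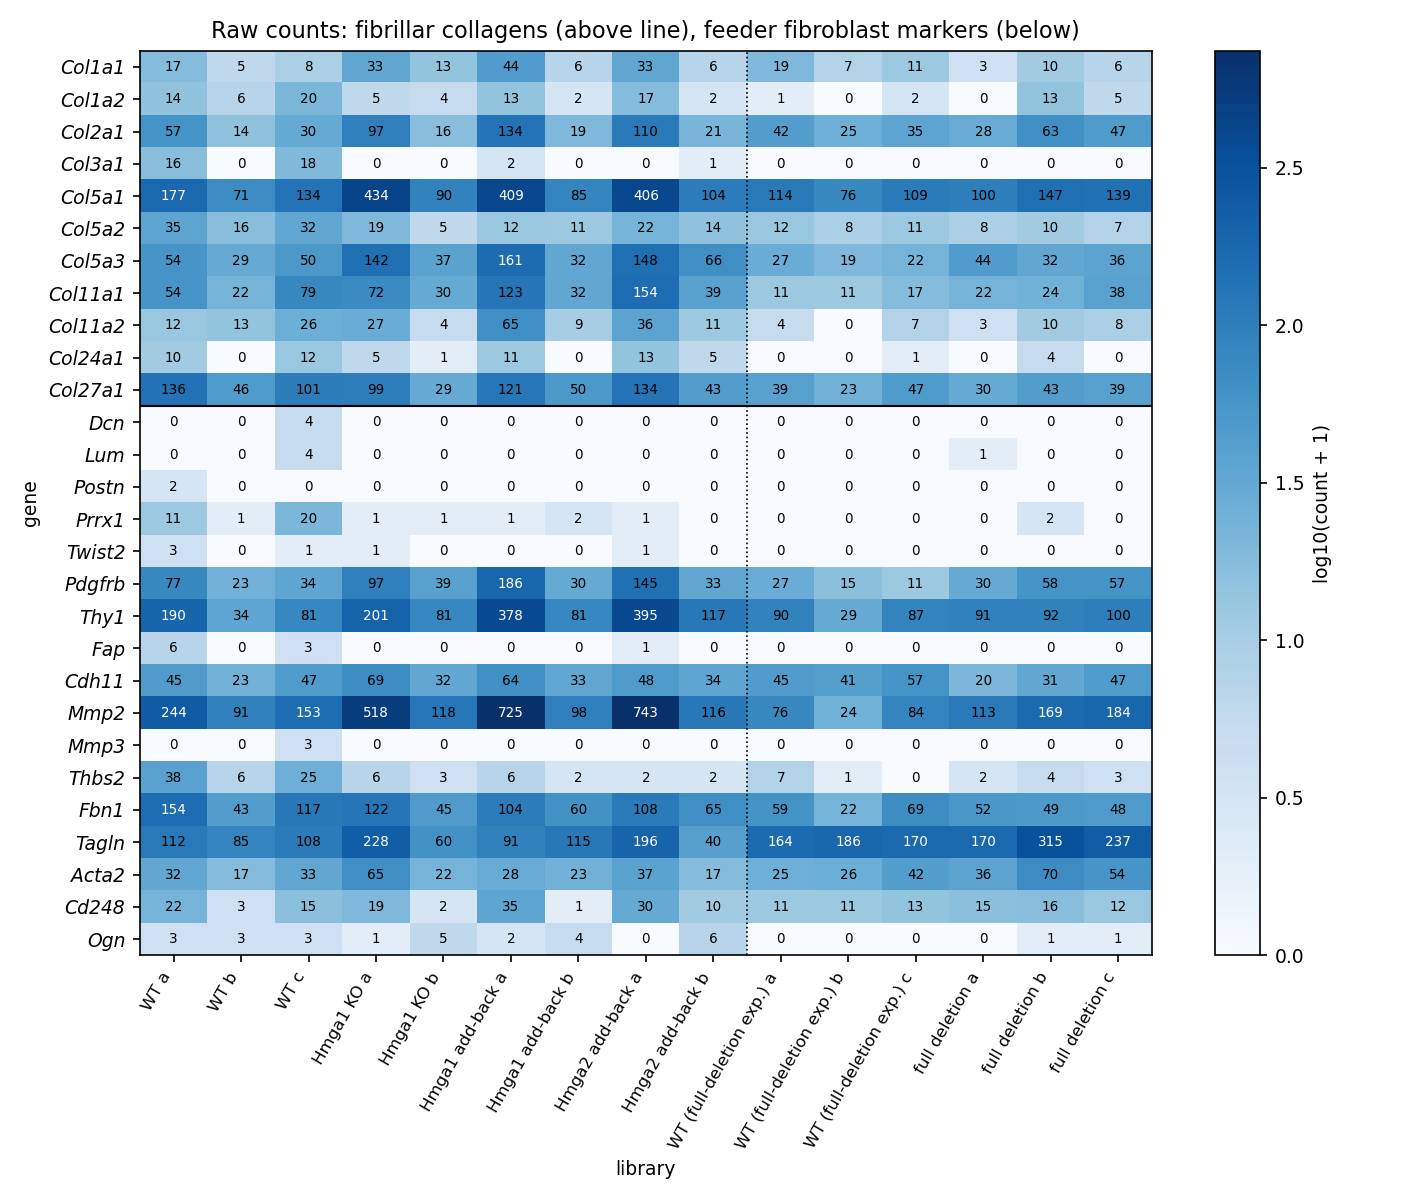
Raw counts of the 11 fibrillar collagens (above the line) and of the 17 feeder markers (below it) in each of the 15 libraries; the colour is log10(count + 1). Col5a1 had 71 to 434 counts, and Col3a1, Prrx1 and Thbs2 had most of their counts in WT a and c.

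Type V collagen nucleates fibrils, and its α1 gene was the leading fibrillar collagen per length. Col5a1 had 5.59, 5.51 and 5.56 CPM in WT, 12.2 and 6.84 CPM in Hmga1 KO, 11.7 and 6.37 CPM in the Hmga1 add-back and 12 and 7.32 CPM in the Hmga2 add-back. All 6 KO-derived libraries lay above the 3 WT libraries. The log2 fold change was 0.75 ± 0.25 (SE) in Hmga1 KO (adjusted p = 0.309, edgeR), and within batches it was 1.12 in a and 0.31 in b. After full deletion Col5a1 had 6.04, 6.34 and 6.31 CPM against 5.41, 4.65 and 5.25 CPM, again without overlap, and the log2 fold change was 0.29 ± 0.14 (adjusted p = 0.176, edgeR).

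Of its partner chains, Col5a3 shared this pattern in both experiments and Col5a2 did not. Col5a2 had 1.11, 1.24 and 1.33 CPM in WT, 0.533 and 0.380 CPM in Hmga1 KO, 0.344 and 0.824 CPM in the Hmga1 add-back and 0.651 and 0.985 CPM in the Hmga2 add-back, so that all 6 KO-derived libraries lay below WT (log2 fold change -1.24 ± 0.47 in Hmga1 KO, adjusted p = 0.357, edgeR). In the full-deletion experiment it had 0.569, 0.490 and 0.530 CPM in WT and 0.484, 0.432 and 0.318 CPM after deletion, under the filter. Col5a3 lay above WT in all 6 KO-derived libraries, at 2.40 to 4.64 CPM against 1.71 to 2.25 CPM. After full deletion it had 2.66, 1.38 and 1.63 CPM against 1.28, 1.16 and 1.06 CPM (log2 fold change 0.67 ± 0.31, adjusted p = 0.159, edgeR).

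Col6a5, a type VI chain, had a lower mean than WT in all 3 KO-derived groups and after full deletion. It had 8.09, 10.4 and 11.1 CPM in WT, 3.53 and 8.43 CPM in Hmga1 KO, 3.16 and 6.52 CPM in the Hmga1 add-back and 2.58 and 5.63 CPM in the Hmga2 add-back. Hmga1 KO b overlapped WT. The log2 fold changes against the same WT libraries were -0.78 ± 0.26, -1.05 ± 0.26 and -1.30 ± 0.27 (SE), with adjusted p of 0.309, 0.190 and 0.106 in edgeR. DESeq2 called the last of these (adjusted p = 0.00896). After full deletion Col6a5 had 6.23, 7.51 and 5.40 CPM against 8.16, 10.6 and 7.80 CPM, without overlap (log2 fold change -0.47 ± 0.19, adjusted p = 0.120, edgeR). The neighbouring type VI gene Col6a4 ran the other way, at 4.27 to 7.58 CPM in the KO-derived libraries and 2.48 to 3.26 CPM in WT.

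Among the remaining collagens, Col17a1, of the hemidesmosome, had similar values in both batches. It had 1.61, 1.32 and 1.78 CPM in WT and 2.85 to 3.65 CPM in the 6 KO-derived libraries, without overlap. Its log2 ratio of Hmga1 KO to WT was 1.17 within batch a and 1.22 within batch b, and the fitted value was 1.19 ± 0.29 (SE, adjusted p = 0.171, edgeR). After full deletion it had 2.48, 2.55 and 2.54 CPM against 2.28, 2.20 and 2.07 CPM.

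Col13a1, a transmembrane collagen of cell-matrix contacts, had 5.37, 5.04 and 6.26 CPM in WT, 8.89 and 5.32 CPM in Hmga1 KO, 13.9 and 6.07 CPM in the Hmga1 add-back and 8.50 and 5.28 CPM in the Hmga2 add-back, and overlapped WT in each. After full deletion it had 7.92, 8.76 and 8.95 CPM against 5.50, 7.53 and 4.81 CPM, without overlap (log2 fold change 0.53 ± 0.19, adjusted p = 0.0937, edgeR). Without WT b of that experiment the adjusted p was 0.000561 at a log2 fold change of 0.73, short of a 2-fold change. With libraries scaled to summed counts it was 0.0404 at 0.84.

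Col9a2, a cartilage FACIT chain, had 1.64, 2.87 and 1.37 CPM in WT, 5.89 and 3.57 CPM in Hmga1 KO, 5.77 and 2.25 CPM in the Hmga1 add-back and 5.98 and 4.22 CPM in the Hmga2 add-back, and 3.23, 5.57 and 2.79 CPM in the second WT group against 4.11, 3.71 and 3.72 CPM after deletion. Hmga1 add-back b overlapped WT, and the groups of the full-deletion experiment overlapped. Col20a1, another FACIT collagen, had 2.43, 3.88 and 2.53 CPM in WT, 3.62 and 3.65 CPM in Hmga1 KO, 5.80 and 3.82 CPM in the Hmga1 add-back, 6.28 and 3.59 CPM in the Hmga2 add-back, 0.996, 1.29 and 1.73 CPM in the second WT group and 1.99, 1.47 and 2.18 CPM after deletion, with overlap in both experiments.

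With TMM scaling and all libraries of an experiment in the edgeR fit, no collagen was called in any comparison at an adjusted p under 0.01 and at least a 2-fold change, and none had an adjusted p under 0.05. Of the 43 genes, 25 could be tested in the first experiment and 20 in the second, and the others had a mean count of at most 9.22 and 9.33. Few genes of any kind were called: 0.0216% of the 13912 tested genes in Hmga1 KO against WT, 0.0144% in the Hmga1 add-back against WT, 0.0647% in the Hmga2 add-back against WT, 0% in the Hmga1 add-back against Hmga1 KO, 0.00719% in the Hmga2 add-back against Hmga1 KO, and 0.0687% of 13098 genes in full deletion against WT. DESeq2 called Col6a5 in the Hmga2 add-back against WT and no other collagen in these comparisons, and limma-trend called none.

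At an unadjusted p under 0.05, edgeR gave 10 of 25 collagens in Hmga1 KO against WT (40%, against 12.6% of all tested genes), 11 of 25 in the Hmga1 add-back against WT (against 13.3%) and 9 of 25 with Hmga2 added back (against 16.9%). These 3 comparisons share the same WT libraries. Col26a1, among the 10 in Hmga1 KO, reached the filter only through its counts there. They were 35 and 13, against 5 to 13 in the other libraries of that experiment. DESeq2 gave 6, 5 and 7 collagens, against 9.52%, 10.2% and 13.5% of all tested genes. The edgeR counts depended on single WT libraries: they fell without WT a and rose without WT b, as did those of all tested genes. Each of these fits compared with 1 WT library, because the batch term set WT c apart. Their spread then came from the KO-derived groups alone, so their counts are not given. Against Hmga1 KO, each add-back had 1 of 25 collagens (against 2.8% and 5.09%). In full deletion against WT 4 of 20 had such a p (20%, against 37% of all tested genes), namely Col11a1, Col7a1 and Col13a1, which were higher, and Col6a5, which was lower.

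Against WT, the median log2 fold change of the tested collagens was 0.56 in Hmga1 KO, 0.77 with Hmga1 added back and 0.68 with Hmga2 added back, beside -0.01, 0.00 and 0.00 over all tested genes. It was 0.17 and 0.27 in the add-backs against Hmga1 KO, and 0.31 after full deletion, beside 0.04 over all tested genes. In Hmga1 KO 18 of the 25 had a positive log2 fold change, against 48.6% of all tested genes, and after full deletion 16 of 20, against 53.4%. The 18 collagens too low to be tested in the KO experiment are left out of its share. At few counts, most of these had a lower mean CPM in Hmga1 KO than in WT. Among them were Col1a2 (0.222 against 0.579) and Col14a1 (0.156 against 0.611), whereas Col6a1, Col15a1 and Col23a1 were higher. All 6 KO-derived libraries lay above all 3 WT libraries for 5 of the 25 collagens, Col5a1, Col5a3, Col6a4, Col17a1 and Col22a1 (20%, against 5.15% of tested genes), and below for 1, Col5a2 (4%, against 3.69%). Set against the WT library of their own batch, the 6 were all higher for 10 of 25 (40%, against 13.2% of tested genes), which adds Col1a1, Col2a1, Col6a6, Col11a1 and Col13a1, and all lower for 3 of 25 (12%, against 14.2%), which adds Col6a5 and Col18a1. All 3 deletion libraries lay above WT for 7 of 20 (35%, against 26.7%) and below for 1, Col6a5 (5%, against 24.6%).

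**Figure D4:**
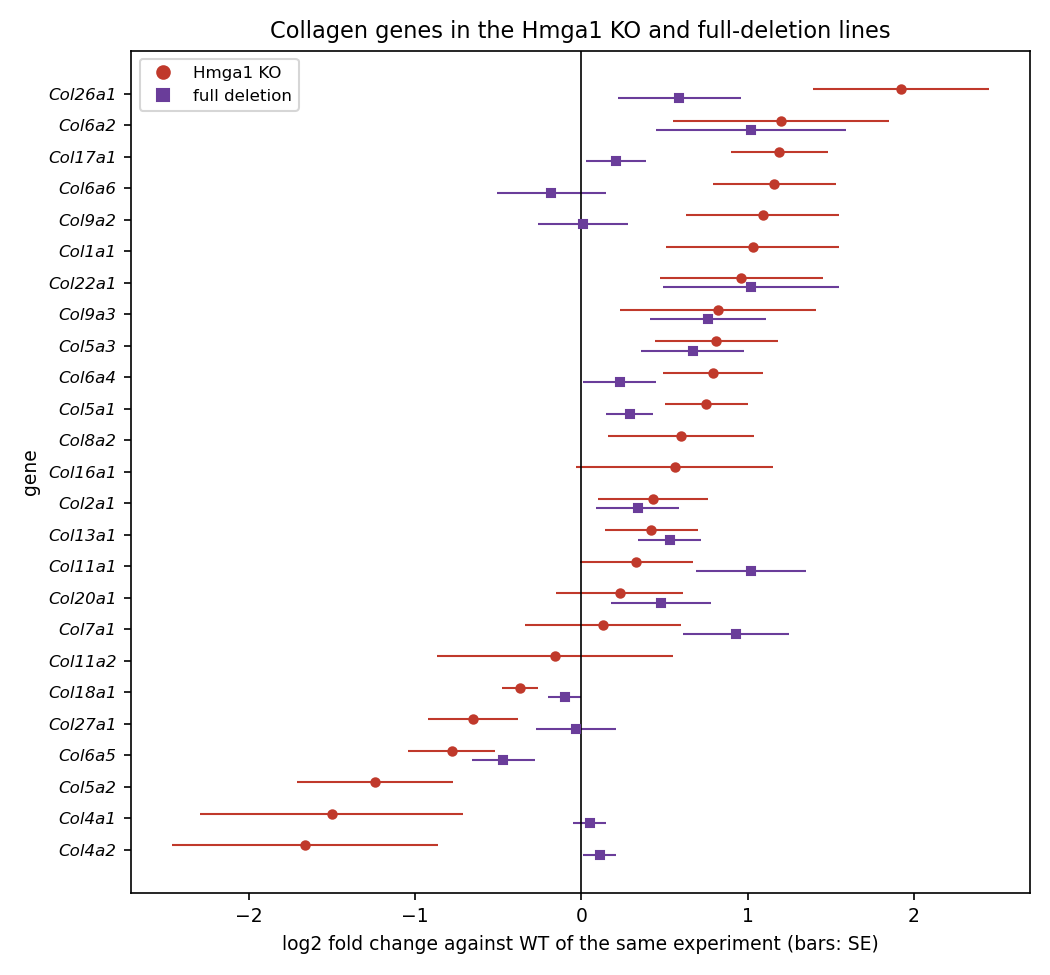
Log2 fold change against WT of the same experiment, with its standard error, for the 25 collagens tested in Hmga1 KO and the 20 tested after full deletion. Most points lie to the right of 0, Col4a1 and Col4a2 have the widest bars in Hmga1 KO, and no gene shown had an adjusted p under 0.05.

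The effects in the 2 knockout lines were compared in a joint fit of all 15 libraries. No collagen differed at an adjusted p under 0.05, where 0.375% of 13050 genes did, and 2 of 20 had an unadjusted p under 0.05, where 18.7% of all tested genes did. Those were Col17a1, whose log2 fold change was higher by 0.99 ± 0.31 in the frameshift KO (SE, adjusted p = 0.195, edgeR), and Col6a6, higher by 1.34 ± 0.49 (adjusted p = 0.231, edgeR).

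Genes that make, partner or bind collagen were followed by lists. Of the 29 genes of collagen synthesis, 25 were tested in the KO experiment and none was called. The lowest p in Hmga1 KO against WT were those of Fkbp10, a collagen chaperone (log2 fold change -0.84), Loxl2, a crosslinking oxidase (0.98), and P4ha1, a prolyl hydroxylase subunit (0.58). In the Hmga1 add-back against WT they were those of Fkbp10 (-0.60), Colgalt2 (2.22) and Loxl2 (0.77), and with Hmga2 added back those of Fkbp10 (-0.60), Serpinh1, the chaperone HSP47 (-0.84), and Loxl2 (0.65). Against Hmga1 KO they were P4ha2 (0.40), Pcolce2 (0.33) and Plod3 (0.25) in the Hmga1 add-back and Adamts3 (1.34), Pcolce2 (0.35) and Colgalt2 (-1) in the Hmga2 add-back. After full deletion 22 were tested and none was called, but 4 had an adjusted p under 0.05 in edgeR, as 8.25% of all 13098 tested genes did. Loxl2 (log2 fold change 0.98, adjusted p = 0.0203), P4ha2 (0.90, adjusted p = 0.0279) and P4ha1 (0.93, adjusted p = 0.0285) were higher and P4hb, their common partner subunit, lower (-0.55, adjusted p = 0.0430). Leaving out any 1 deletion library or WT c cut the genes of all kinds at that threshold from 1080 to 3 or 4, and these 4 genes were then not among them (adjusted p up to 0.194).

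Of the 17 basement membrane partners, 15 were tested in the KO experiment and none was called. Lama3 and Lamb3, chains of laminin 332, had the lowest p in Hmga1 KO against WT (log2 fold changes 1.58 and 1.82, adjusted p = 0.0536 and 0.166, edgeR), followed by Agrn (-0.35). Lama3 had 2.84 to 3.65 CPM in WT and 8.78 and 10.1 CPM in Hmga1 KO, but 7.37 to 11.8 CPM in the WT of the full-deletion experiment. Lamb3 and Lama3 also led in the Hmga1 add-back against WT (2.04 and 1.11, then Agrn, -0.22), and Lamb3 (1.84), Lamc1 (-0.28) and Lama5 (-0.22) in the Hmga2 add-back against WT. Against Hmga1 KO they were Lamb1 (0.62), Lama3 (-0.47) and Lama4 (0.95) in the Hmga1 add-back and Lama3 (-1.29), Agrn (0.18) and Lama4 (0.70) in the Hmga2 add-back. After full deletion Lamb1, the β chain of laminin 111, was lower (-0.47, adjusted p = 0.0433, edgeR, up to 0.180 with 1 library left out), and Nid1 (-0.38) and Lamb3 (0.90) followed.

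Of the 7 collagen receptors, 5 were tested in the KO experiment and none was called. In Hmga1 KO against WT the lowest p were those of Ddr2, a receptor kinase for fibrillar collagen (log2 fold change 2.50, adjusted p = 0.140, edgeR), Itga1, an integrin subunit (-1.11), and Itgb1 (-0.26). Ddr2 had 1.30, 2.25 and 2.45 CPM in WT and 9.65 and 7.90 CPM in Hmga1 KO, but 5.39 to 7.78 CPM in the WT of the full-deletion experiment. In the Hmga1 add-back against WT they were those of Itga1 (-1.37), Ddr2 (1.44) and Ddr1 (0.27), and with Hmga2 added back those of Itga1 (-1.45), Itgb1 (-0.36) and Ddr1 (0.42). Against Hmga1 KO they were Ddr2 (-1.06), Ddr1 (0.19) and Itga1 (-0.27) in the Hmga1 add-back and Ddr2 (-1.27), Ddr1 (0.34) and Itga10 (0.76) in the Hmga2 add-back. After full deletion they were Ddr1 (-0.39), Ddr2 (-0.15) and Itgb1 (0.08).

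None of the marker lists had a called gene in these comparisons. The 12 tested endoderm markers had a median log2 fold change of -2.08 in Hmga1 KO against WT, led by Gata6 (-2.39), Dab2 (-2.30) and Sox7 (-2.06). Hnf4a followed at 0.83 (unadjusted p = 0.0323, adjusted p = 0.363, edgeR), and was the only 1 of the 12 with a positive value. For the 3 leading genes the size rested on batch a. From WT to Hmga1 KO, Gata6 went from 9.96 to 0.729 CPM in a but from 3.1 to 2.51 CPM in b. Dab2 went from 50.6 to 3.42 CPM in a and from 16.4 to 12.4 CPM in b. Sox7 went from 11.2 to 1.12 CPM in a and from 3.41 to 2.96 CPM in b. The 9 endoderm markers tested after full deletion had a median of 0.33, led by Dab2 (0.82), Hnf4a (0.55) and Gata4 (0.71). The 9 tested feeder markers had medians of 0.44 in Hmga1 KO, led by Thbs2 (-2.24), Mmp2 (0.63) and Acta2 (0.64), and the 8 tested after full deletion of 0.39, led by Mmp2 (1.28), Pdgfrb (1.34) and Acta2 (0.68). Thbs2 reached the filter in the KO experiment only through its counts in WT a and c, so its lower value against WT was tied to that filter. The 10 ESC markers had medians of 0.04 and -0.25, and Fgf4 had an adjusted p of 0.0279 after full deletion (log2 fold change -0.70, edgeR). Of the 3 tested formative epiblast markers, Otx2 was higher (1.34, adjusted p = 0.0334, edgeR) and Dnmt3b lower (-0.68, adjusted p = 0.0250) after full deletion. With 1 library left out, the adjusted p of Fgf4, Otx2 and Dnmt3b reached up to 0.160. Of the 5 chondrocyte markers, Acan had 5.22 to 7.83 CPM in WT and 16.5 and 12 CPM in Hmga1 KO (log2 fold change 1.15, adjusted p = 0.169, edgeR), but 12.9 to 16.8 CPM in the WT of the full-deletion experiment, and Sox9 was at most 0.415 CPM in any library.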

How the data were processed

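RNA depleted of ribosomal RNA was sequenced in 15 libraries. The authors used QuasR with Bowtie on the mm9 assembly, demultiplexing with bcl2fastq 2.17 per the labels, placed multi-mapping reads at 1 alignment at random, which leaves near-identical genes uncertain, and deposited raw counts per UCSC known gene on the gene's own strand. From these counts, edgeR 4.0.16 quasi-likelihood tests with TMM scaling were run on genes averaging 10 or more counts in the experiment, with the batch letter as a term in the KO experiment, as the study did, and none in the full-deletion experiment. In the KO experiment, deviations of same-letter libraries correlated at 0.432 to 0.870. Genes were called at an adjusted p under 0.01 (Benjamini-Hochberg) with at least 2-fold change. DESeq2 1.42.0 and limma 3.58.1 (limma-trend, prior count 2) were alternatives. RPKM used the union of GENCODE exons on NCBIM37. Within-batch ratios used a pseudocount of 0.5. The scripts were tested on simulated data. Values were named for collagens of at least 1 RPKM, those called and 8 set genes, and for the other lists the 3 genes of lowest p where fewer than 3 were called. For marker lists these are given for the knockout lines only. Other genes named with values were chosen after these were seen. The members and lists were chosen with earlier results of these data known.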

Additional observations from a re-analysis of the deposited data

How the results depend on the processing

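The count of called collagens was 0 in each comparison under each alternative run, with 3 exceptions: DESeq2 called 1 in the Hmga2 add-back against WT, and the fit of only the 2 groups compared called 2 there and 2 in the Hmga1 add-back against Hmga1 KO. Leaving out each library in turn gave 0 to 0. For WT c of the KO experiment this was no test of the values against WT, since the batch term already set it apart. For the same reason, the fits without WT a or WT b compared with 1 WT library. Without the replicate block, the KO experiment gave 0, and with a replicate block the full-deletion experiment gave 0. There the letters did not pair the libraries (same-letter deviations correlated at 0.148, 0.152 and -0.0665), and the block lowered the genes called from 9 to 4.

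Of 58 log2 fold changes followed, those that changed sign were of Col4a1 and Col4a2, and of Col18a1 after full deletion, which was 0.18 with summed counts. That scaling moved the median of all genes there from 0.04 to 0.32. In the Hmga1 add-back against WT, Col4a1 was 0.07 without the replicate block. With 1 library left out it ran from -1.19 to 0.56 (0.53 without WT a, 0.56 without Hmga1 add-back a), and Col4a2 from -1.23 to 0.47 (0.47 without either). In the Hmga2 add-back against WT, Col4a1 ran from -2.66 to 0.08 and Col4a2 from -2.64 to 0.13, both positive without WT a. Col4a1 ran from -2.83 to -0.48 and Col4a2 from -3.02 to -0.59 in Hmga1 KO against WT, and from 0.10 to 2.80 and 0.24 to 2.91 in the Hmga1 add-back against Hmga1 KO. In the Hmga2 add-back against Hmga1 KO, Col4a1 ran from -0.88 to 1.83 and Col4a2 from -0.71 to 2.07, being negative without Hmga1 KO a (-0.51 and -0.36) and without Hmga2 add-back a. The cause was not tested.

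Single libraries decided how many genes passed. Without WT b of the KO experiment, more genes of all kinds were called against WT, but that fit compared with 1 WT library. The log2 fold changes of Col5a1, Col6a5 and Col9a2 in Hmga1 KO were then 1.11, -1.14 and 1.88. With all libraries they were 0.75, -0.78 and 1.09. Without WT b of the full-deletion experiment 362 genes were called instead of 9, and Col11a1, Col18a1 and Col6a2 joined Col13a1 at an adjusted p under 0.05 (0.0410, 0.0237 and 0.0399). In that comparison 1080 genes had an adjusted p under 0.05, but 3 did without any 1 deletion library and 4 without WT c. DESeq2 called 76, 76, 107 and 463 genes in the 4 comparisons with WT. With exonic bases from the count tables, an alternative chosen after seeing the data, Col20a1 had 0.672 RPKM in the Hmga1 add-back and fell under 1 RPKM in each group.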
